A study of Mus musculus with 52 samples.

Results

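The response of bone marrow stroma to total-body irradiation was read from 8 RNA-seq libraries, 4 from irradiated and 4 from non-irradiated mice, out of 32 stroma libraries and 52 libraries in the series. All 8 mice were given vehicle. The irradiated mice were injected 30 min before 853 cGy of total-body irradiation, the non-irradiated mice were sham-irradiated, and marrow was taken 1 h after irradiation. Each group held 2 female and 2 male mice with 1 library per mouse. The strain and age of the mice are not given in the sources used here. The stroma was the marrow fraction without the leucocyte marker CD45 and the red cell marker Ter119, enriched with magnets, so each library is a mixture of cell types. The comparison asks which genes the stroma had changed by 1 h after irradiation. A further 4 mice per group gave stroma after PGE, a label read here as dmPGE2, a stable analogue of prostaglandin E2, with and without irradiation, and supplied the same comparison in other animals.

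Ionising radiation breaks DNA, and the kinases ATM and ATR then stabilise the transcription factor p53 and activate the transcription factor NF-kB. p53 raises genes that halt the cell cycle, repair DNA or start cell death, together with Mdm2, Ccng1 and Ppm1d, whose products act back on p53. NF-kB raises its own inhibitors along with adhesion molecules and cytokines. Stromal cells of the marrow, among them the CXCL12-abundant reticular (CAR) cells, osteoblasts and endothelium, form the niche that holds haematopoietic stem cells.

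The 8 libraries held 47.3 to 65.5 M counts. Expression is given as CPM, the counts of a gene per M (mega) counts of its library after TMM scaling, and values for single mice are in the order of replicates 1 to 4. Non-irradiated replicate 4 stood apart. It lay at 83.6 on the first principal component of the 8 libraries, which carried 31.5% of their variance, where the other 7 lay between -36.9 and 17.6. Its collagen gene Col1a1 was at 24363.5 CPM against 2488 to 8587 CPM in the others. The inactive-X transcript Xist was at 3.11 CPM in this library against 121.1 to 198 CPM in the other 3 libraries labelled female, and the Y-linked Ddx3y was at 0. Its animal number, 1021, is also far from the others, which run from 715 to 730 and from 780 to 793. Its 25 ribosomal protein genes summed to 17527 CPM against 25623 to 34368 CPM in the other 7. The part of this library in each count of called genes is given by the count without it.

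Irradiation raised 100 genes and lowered 17 of 15168 tested at an adjusted p under 0.05, which is 0.659% and 0.112% of the genes, or 0.771% together. Changes are given as log2 fold changes, irradiated minus non-irradiated, and the median over all genes was -0.01. Of the raised genes 66 were at least 2-fold, 27 at least 4-fold and 12 at least 8-fold higher, and of the lowered genes 9 were at least 2-fold lower. All 4 irradiated libraries lay beyond all 4 non-irradiated ones for 99 of the raised and 17 of the lowered genes, against 5.64% of all genes in either direction. The exception was the immediate early gene Junb. The genes were called from these same libraries, so their separation describes them and tests nothing. Without non-irradiated replicate 4, 69 genes passed, of which 62 were among the 100 raised and 4 among the 17 lowered genes, and the fold change of 0 raised or lowered genes moved by more than 1.5 times. The count of raised genes was 64 without that library and 66 without non-irradiated replicate 3. Lowered genes numbered 3 without irradiated replicate 1, 6 without irradiated replicate 3, 11 without non-irradiated replicate 1, 9 without non-irradiated replicate 2 and 5 without non-irradiated replicate 4. The first run of animal numbers (715 to 730) held 2 irradiated and 2 non-irradiated mice. There the raised and lowered genes all kept their sign and 45 of them passed. These mice also took part in the call, so the kept signs test nothing. With the run as a term in the fit 213 genes passed, 163 higher and 50 lower. In each of the 8 fits that left out 1 of these libraries 58 of the raised and lowered genes passed, and a gene named here as raised or lowered belongs to these 58 unless it is said to be lost, meaning that its adjusted p rose above 0.05. These 8 fits still shared their spread with the other stroma groups. In a fit of the 8 vehicle libraries alone 52 of the raised and lowered genes passed. Some of the 58 did not pass there, among them Tnfaip3 (adjusted p = 0.0764), Nfkbib (0.0531) and Msantd4 (0.287).

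**Figure D1:**
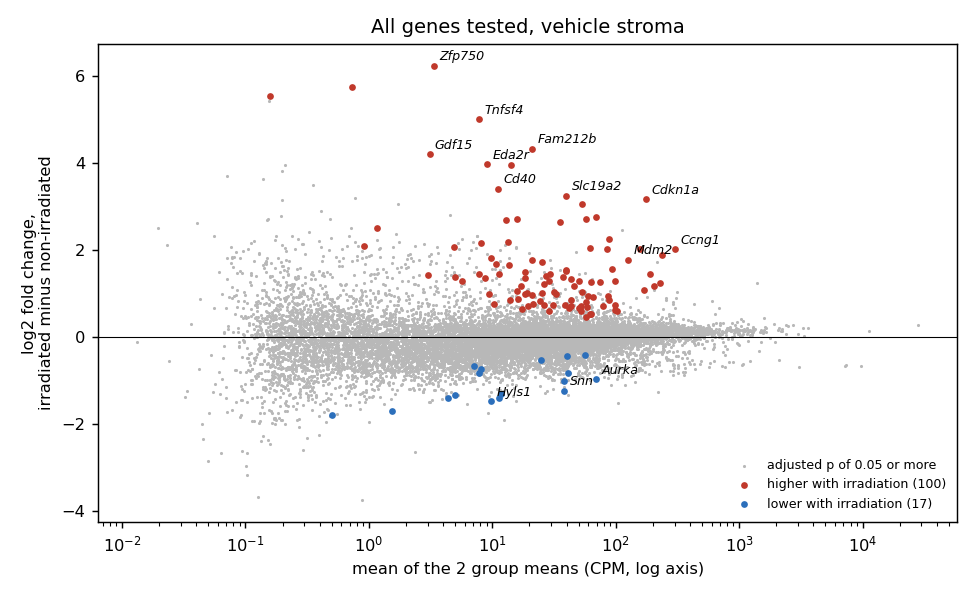
Each point is 1 of 15168 genes, with the mean of the group means in CPM on a log axis and the log2 fold change, irradiated minus non-irradiated, on the other axis. The 100 genes that passed upward reach 6.23 (Zfp750), while the 17 that passed downward lie between -1.79 and -0.41.

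Mdm2, Ccng1 and Ppm1d were the raised genes among the feedback genes of p53. Mdm2, the ubiquitin ligase that degrades p53 (chromosome 10, 117688875 to 117710758 in mm10), stood at 201, 196, 180.1 and 208 CPM in the irradiated and at 51.3, 56.0, 58.6 and 62.5 CPM in the non-irradiated mice. Ccng1, cyclin G1, which recruits a phosphatase to Mdm2, stood at 504, 484, 424 and 527 against 126.5, 131.4, 121.2 and 99.7 CPM. Ppm1d, the phosphatase Wip1 that switches off p53 and ATM signalling, stood at 78.3, 76.3, 80.6 and 75.5 against 41.8, 43.9, 37.97 and 39.4 CPM. In all 3 genes the lowest irradiated mouse was well above the highest non-irradiated one. The log2 fold changes were 1.78 (SE 0.17, adjusted p = 2.55e-07) for Mdm2, 2.01 (SE 0.21, adjusted p = 5e-07) for Ccng1 and 0.93 (SE 0.12, adjusted p = 1.48e-05) for Ppm1d. The change of Ppm1d was under 2-fold, and the SD within each group was below 3 CPM. These 3 were the called members of 11 measured feedback genes, whose median was 0.31, and 0.659% of all genes rose. The p53 gene itself, Trp53, stood at 243 to 299 CPM in irradiated and 130.1 to 252 CPM in non-irradiated mice (log2 fold change 0.47, SE 0.17, adjusted p = 0.295), and its inhibitor Mdm4 at 93.8 to 133.5 against 77.8 to 98.1 CPM (0.31, adjusted p = 0.554).

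The sequences just before the starts of Mdm2, Ccng1 and the arrest gene Cdkn1a are shown because each holds the p53 half-site, the decamer that p53 binds in pairs, within the 250 bases upstream of the RefSeq start. Capitals mark the half-site. Sequences are from RefSeq, build GRCm38.p6, written 5′ to 3′ on the gene's strand.
Mdm2 upstream, chr10:117710759-117711008, - strand: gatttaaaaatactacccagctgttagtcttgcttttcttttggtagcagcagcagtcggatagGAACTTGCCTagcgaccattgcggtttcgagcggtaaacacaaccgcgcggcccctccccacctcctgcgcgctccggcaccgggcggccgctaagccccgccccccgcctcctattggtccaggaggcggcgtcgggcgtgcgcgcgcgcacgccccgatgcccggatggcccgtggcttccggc
Ccng1 upstream, chr11:40755287-40755536, - strand: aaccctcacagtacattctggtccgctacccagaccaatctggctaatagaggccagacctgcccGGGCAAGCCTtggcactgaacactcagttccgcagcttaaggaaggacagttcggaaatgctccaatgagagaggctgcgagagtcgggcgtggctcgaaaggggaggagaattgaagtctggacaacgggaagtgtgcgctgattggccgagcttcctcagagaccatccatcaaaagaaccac
Cdkn1a upstream, chr17:29090729-29090978, + strand: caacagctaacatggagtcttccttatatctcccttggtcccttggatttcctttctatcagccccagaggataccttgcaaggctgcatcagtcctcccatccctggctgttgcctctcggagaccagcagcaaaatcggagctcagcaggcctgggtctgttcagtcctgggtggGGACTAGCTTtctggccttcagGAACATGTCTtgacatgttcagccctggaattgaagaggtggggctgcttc
Both strands were searched. A half-site was found before 7 of the 27 raised listed p53 targets with a RefSeq entry (25.9%), and before 7.43% of all 11352 measured genes with one. The 7 were Aen, Ccng1, Cdkn1a, Ei24, Mdm2, Polk and Ppm1d. Among all raised genes the share was 15 of 79 (19%), and among lowered genes 1 of 14 (7.14%). These are matches of letters in a short window and not measured binding.

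Of 18 measured genes of arrest and growth 8 rose, 0 fell and 10 did not pass, with a median of 0.82. Over all genes 0.659% rose and 0.112% fell. Cdkn1a, which encodes the CDK inhibitor p21 (chromosome 17, 29090986 to 29100722), stood at 369.7, 346, 223 and 325 CPM in irradiated and at 35.0, 38.8, 24.9 and 41.9 CPM in non-irradiated mice (log2 fold change 3.17, SE 0.32, adjusted p = 5e-07). Irradiated replicate 3, the lowest of its group, was still more than 5 times the highest non-irradiated mouse. Plk2, a polo-like kinase, stood at 111.9, 105, 71.5 and 95.9 against 13.4, 15.9, 6.54 and 10.2 CPM (3.06, SE 0.37, adjusted p = 9.21e-06). Sesn2, the sestrin that restrains mTORC1, stood at 124.9, 138.1, 99.5 and 123.9 against 18.6, 19.6, 18.4 and 15.7 CPM (2.75, SE 0.25, adjusted p = 1.37e-07). Phlda3, a repressor of AKT, was at 69.0 to 138.03 against 10.04 to 18.9 CPM (2.72), and Gtse1, which carries p53 out of the nucleus, at 119.8 to 152 against 35.7 to 57.8 CPM (1.56). The 8 raised genes included Btg2 (1.23) and the RNA-binding gene Zmat3 (1.01). Without non-irradiated replicate 4 both were lost (adjusted p = 0.112 and 0.0524), Zmat3 was also lost without non-irradiated replicate 1 (0.0511), and Btg2 without irradiated replicate 1 or 3 or non-irradiated replicate 2 or 3 (0.0591 to 0.132). Other members of this list did not pass, among them the sestrin Sesn1 (-0.24, adjusted p = 0.61) and Gadd45a (-0.18, adjusted p = 0.822), named here after their values were seen.

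Among targets of cell death, 2 receptor genes and 2 BH3-only genes had rises of over 4-fold. Tnfrsf10b, the mouse death receptor for TRAIL, stood at 21.2, 25.3, 20.95 and 39.4 CPM with irradiation and at 0.954, 1.75, 1.66 and 2.43 CPM without (log2 fold change 3.95, SE 0.39, adjusted p = 5e-07). Eda2r, the X-linked receptor for ectodysplasin A2, stood at 15.9, 17.4, 13.4 and 21.7 against 0.871, 1.53, 0.952 and 0.966 CPM (3.97, SE 0.42, adjusted p = 9.1e-07). The lowest irradiated value was over 8 times the highest non-irradiated value in both. Bbc3, which encodes the BH3-only protein PUMA, stood at 70.5, 64.8, 53.01 and 54.3 against 4.54, 9.28, 14.9 and 10.8 CPM (2.63, SE 0.34, adjusted p = 2.45e-05). Pmaip1, which encodes the BH3-only protein NOXA, stood at 39.0, 26.3, 19.2 and 25.5 against 5.29, 4.35, 3.69 and 3.32 CPM (2.71, SE 0.39, adjusted p = 0.000109). Neither overlapped between the groups. The mTORC1 inhibitor gene Ddit4 rose as well, from 22.9 to 36.5 CPM up to 130.7 to 152 CPM (2.25, SE 0.27, adjusted p = 9.21e-06).

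Of 21 measured p53 targets of apoptosis 11 rose, 0 fell and 10 did not pass, with a median of 0.72. Over all genes 0.659% rose and 0.112% fell. Smaller rises were those of the exonuclease gene Aen (1.03) and of Ei24 (0.72, adjusted p = 2.45e-05). Trp53inp1 (1.45) was lost without non-irradiated replicate 3 (adjusted p = 0.062), and the PIDDosome gene Pidd1 (1.29), the apoptosome gene Apaf1 (0.60) and the BH3-only gene Bcl2l11 (0.58) were each lost in 2 or more of the 8 fits. For Pidd1 these were the fits without irradiated replicate 1 or 2 or non-irradiated replicate 3 or 4 (0.0516 to 0.0885), for Bcl2l11 those without irradiated replicate 1 (0.0685) or non-irradiated replicate 2 (0.0585), and for Apaf1 all 8 (0.0519 to 0.136). Bax stood at 45.5 to 65.9 against 28.8 to 44.8 CPM without overlap but did not pass (0.60, adjusted p = 0.0917), and neither did the death receptor gene Fas (0.80, adjusted p = 0.487). Both are named after their values were seen. Among 23 measured genes of the BCL2 and IAP families Bbc3, Pmaip1 and Bcl2l11 were the 3 called, and the median was 0.08.

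**Figure D2:**
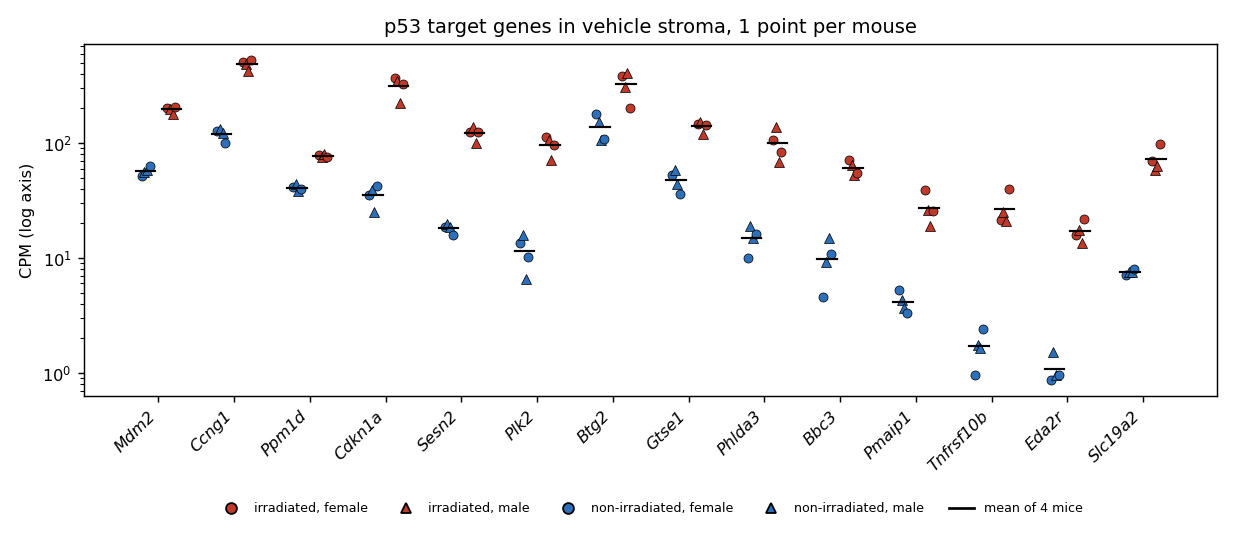
CPM on a log axis in each vehicle mouse for 14 raised p53 targets, with irradiated mice in red, non-irradiated mice in blue, circles for females, triangles for males and a bar at the mean of 4 mice. In all 14 genes every irradiated mouse lies above every non-irradiated one, by the smallest margin in Btg2 (200.5 against 179 CPM).

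Slc19a2, the thiamine transporter gene (chromosome 1, 164249046 to 164265385), had the smallest p of all genes. It stood at 69.8, 58.0, 63.7 and 97.8 CPM in irradiated and at 7.16, 7.59, 7.51 and 8.00 CPM in non-irradiated mice (log2 fold change 3.25, SE 0.24, adjusted p = 3.42e-09). The non-irradiated mice, replicate 4 included, lay within 1 CPM of each other. Lpin1, a phosphatidate phosphatase, rose from 45.9 to 64.8 CPM up to 114.9 to 158 CPM (1.28, adjusted p = 2.53e-05), and the nucleotide excision nuclease gene Ercc5 from 20.7 to 23.5 CPM up to 37.4 to 51.7 CPM (0.99, adjusted p = 9.2e-05). With the translesion polymerase gene Polk (1.39), which was lost in 5 of the 8 fits (adjusted p = 0.0597 to 0.109 without irradiated replicate 2 or 4 or non-irradiated replicate 1, 2 or 3), these were the 4 called of 23 targets in DNA repair and metabolism. The median of that list was 0.07, and 0.659% of all genes rose. Other repair targets, named after their values were seen, were Ddb2 (0.04) and Xpc (-0.24), damage recognition genes, and the nucleotide reductase gene Rrm2b (-0.74, adjusted p = 0.0842).

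Of 51 other genes known as p53 targets in mouse cells 7 rose and 0 fell (median 0.17). Fam212b stood at 38.8, 44.4, 28.8 and 47.7 against 1.47, 3.90, 1.25 and 1.37 CPM (log2 fold change 4.33, SE 0.53, adjusted p = 1.41e-05). Gdf15, a secreted stress hormone, had 1349 counts in the irradiated and 65 in the non-irradiated libraries together. This is 4.91 to 7.63 against 0.106 to 0.602 CPM (4.20, SE 0.55). Its change was 4.79 without non-irradiated replicate 2 and 3.91 without non-irradiated replicate 4. The receptor tyrosine kinase gene Epha2 was at 36.5 to 50.2 against 11.8 to 22.4 CPM (1.45). The remaining 4, Tnfrsf18, Zfp385a, Cd80 and Psrc1, were called in all libraries but lost in 3, 6, 8 and 6 of the 8 fits (adjusted p up to 0.079, 0.158, 0.16 and 0.227), each time including the fit without non-irradiated replicate 4. Over all lists of p53 targets together 32 measured genes rose, 0 fell and 91 did not pass. Of all genes 0.659% rose and 0.112% fell. The lists were chosen with earlier results of these data known, so these shares are not an independent test. Without non-irradiated replicate 4, 24 of the 32 passed. The median over these lists was 0.20. Of the 32 genes, 21 passed in each of the 8 fits.

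Genes of the damage sensors and of double-strand break repair were not among the called ones. Of 31 measured, 0 passed, and in 0 of them did the groups separate. Of all genes 0.771% passed and 5.64% separated, so a list this short would hold few of either. Atm stood at 50.2 to 82.0 CPM with and 54.2 to 69.3 CPM without irradiation (-0.05, 95% interval -0.44 to 0.34), Atr at 49.3 to 77.7 against 45.6 to 57.3 CPM (0.21), Chek1 at 50.3 to 56.7 against 33.6 to 61.6 CPM (0.15) and Chek2 at 39.8 to 45.9 against 26.95 to 43.3 CPM (0.18). The median of the list was 0.06. Of the p53 relatives, Trp63 was at or below 0.776 CPM in irradiated mice and at 2.26 CPM in non-irradiated replicate 4 (-0.73, adjusted p = 0.861), and Trp73 was not analysed here.

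The subunits and inhibitors of NF-kB formed the other list with many called members. Nfkbia, which encodes the inhibitor IkB-alpha that holds NF-kB in the cytoplasm (chromosome 12, 55489409 to 55492647), stood at 447, 406, 382 and 265 CPM in irradiated and at 111, 130.97, 84.0 and 81.4 CPM in non-irradiated mice (log2 fold change 1.88, SE 0.24, adjusted p = 1.62e-05). Tnfaip3, which encodes the ubiquitin-editing enzyme A20, stood at 297, 262, 230.1 and 227 against 84.6, 100.2, 40.0 and 27.5 CPM (2.02, SE 0.39, adjusted p = 0.00509). The groups did not overlap, and non-irradiated replicates 3 and 4 lay below replicates 1 and 2 in both genes. The nuclear inhibitor gene Nfkbid was at 17.2 to 23.4 against 5.24 to 9.12 CPM (1.65, SE 0.30, adjusted p = 0.00271), and the inhibitor gene Nfkbib at 29.6 to 33.9 against 14.6 to 21.8 CPM (0.82, adjusted p = 0.00225). Among subunits, Relb was at 31.5 to 43.4 against 9.47 to 14.6 CPM (1.72, SE 0.31, adjusted p = 0.00225).

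In all, 9 of 24 measured genes of this list rose and 0 fell, the median was 0.58, and the groups separated in 14. Over all genes 0.659% rose, 0.112% fell and 5.64% separated in either direction. This list too was chosen with earlier results of these data known. The other 4 called genes were Nfkbiz (1.54), Nfkbie (1.29), Nfkb2 (1.27) and Rela (0.62), and all 4 were lost without non-irradiated replicate 4 (adjusted p = 0.061, 0.0505, 0.0539 and 0.102), which left 5 of the 9. Nfkbiz was also lost without irradiated replicate 1 (0.0589), Rela without irradiated replicate 1 or non-irradiated replicate 3 (0.0808 and 0.0753), Nfkbie without irradiated replicate 4 or non-irradiated replicate 1 or 3 (0.0548 to 0.0595), and Nfkb2 without irradiated replicate 2 or non-irradiated replicate 1 or 3 (0.0515 to 0.0615). The kinase genes Chuk, Ikbkb and Ikbkg, whose products form the complex that releases NF-kB, were at 0.13, 0.11 and -0.15 and did not pass. These 3 are named after their values were seen.

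The upstream sequences of Nfkbia, Tnfaip3 and Nfkb2 are shown because each holds the decamer known as the NF-kB site, marked in capitals. In Nfkb2, for which RefSeq gives several starts, the most upstream is used.
Nfkbia upstream, chr12:55492648-55492897, - strand: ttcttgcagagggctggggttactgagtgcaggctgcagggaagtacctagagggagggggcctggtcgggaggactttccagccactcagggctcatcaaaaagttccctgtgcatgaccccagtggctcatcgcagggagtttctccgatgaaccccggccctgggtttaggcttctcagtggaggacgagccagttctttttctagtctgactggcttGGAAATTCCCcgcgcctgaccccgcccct
Tnfaip3 upstream, chr10:19015411-19015660, - strand: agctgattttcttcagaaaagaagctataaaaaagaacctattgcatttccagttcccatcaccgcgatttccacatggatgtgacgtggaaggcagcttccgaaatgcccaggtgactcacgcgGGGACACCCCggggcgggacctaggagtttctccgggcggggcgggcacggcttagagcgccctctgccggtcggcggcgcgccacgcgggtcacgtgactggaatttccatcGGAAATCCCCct
Nfkb2 upstream, chr19:46304487-46304736, + strand: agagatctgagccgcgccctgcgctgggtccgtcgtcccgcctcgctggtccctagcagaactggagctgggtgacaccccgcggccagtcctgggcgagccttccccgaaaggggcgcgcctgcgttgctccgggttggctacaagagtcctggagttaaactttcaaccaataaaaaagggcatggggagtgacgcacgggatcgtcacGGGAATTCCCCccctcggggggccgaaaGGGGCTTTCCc
The NF-kB site was found on either strand before 5 of the 7 raised genes of the list that have a RefSeq entry (71.4%), namely Nfkb2, Nfkbia, Nfkbid, Nfkbie and Tnfaip3, and before 5.65% of all measured genes with an entry. The p53 half-site was found before 0 of these 7. Among raised p53 targets the NF-kB site was found before 2 of 27 (7.41%), Bbc3 and Gtse1. Among all raised genes the share was 12 of 79 (15.2%), and among lowered genes 2 of 14 (14.3%), Ankrd6 and Jade1. These too are matches of letters and not measured binding.

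Genes of the TNF superfamily and of activated immune or endothelial cells followed. Tnfsf4, which encodes the costimulatory ligand OX40L, stood at 11.6, 19.2, 12.4 and 17.7 CPM in irradiated and at 0.353, 1.22, 0.423 and 0.0193 CPM in non-irradiated mice (log2 fold change 5.01, SE 0.80, adjusted p = 0.000566). In counts this was 3526 over the irradiated and 105 over the non-irradiated libraries, and its fold change moved to 5.82 without non-irradiated replicate 2. Cd40, a costimulatory receptor gene, stood at 25.6, 17.2, 16.6 and 21.9 against 1.62, 2.43, 1.59 and 1.87 CPM (3.41, SE 0.58, adjusted p = 0.00121). Icam1, the adhesion molecule that binds leucocyte integrins, stood at 93.0, 112.6, 70.9 and 122.1 against 18.5, 25.8, 22.2 and 29.8 CPM (2.04, SE 0.40, adjusted p = 0.00739). All 3 separated the groups. Tnfsf4 was the 1 called of 15 measured ligand genes of the TNF superfamily (median 0.04), and Tnfrsf10b, Eda2r, Cd40 and Tnfrsf18 were the 4 called of 26 receptor genes (median -0.08). Over all genes 0.659% rose. Tnfrsf10b, Eda2r and Tnfrsf18, and also Cd80, are counted among the raised p53 targets as well. Icam1, Cd83 (1.46) and Cd80 (1.42) were the 3 called of 14 genes of adhesion and costimulation, but Cd83 was lost without non-irradiated replicate 1 or 2 or irradiated replicate 3 (adjusted p = 0.0595 to 0.0642) and Cd80 in all 8 fits, so that Icam1 alone passed in each. Marker sums of the blood cells that also express such genes overlapped between the groups. Monocyte and macrophage markers summed to 2301 to 2802 against 1971 to 3117 CPM and B cell markers to 462 to 582 against 335 to 783 CPM. T and NK cell markers summed to 14.3 to 22.1 against 8.96 to 17.9 CPM. The part of cell composition in the rises of these genes was not tested.

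Secreted inflammatory factors did not pass at 1 h. Of 23 cytokine and 25 chemokine genes 0 were called, with medians of -0.06 and 0.21. Of all genes 0.771% were called. At that share these lists, and the other lists given here with 0 called, would mostly hold 0. The chemokine genes with the largest changes, named after their values were seen, varied between mice. Cxcl1 stood at 2.48, 9.57, 1.99 and 3.78 against 0.519, 1.36, 2.10 and 0.502 CPM (log2 fold change 2.13, SE 0.67, adjusted p = 0.193), with overlap. Ccl2 stood at 10.95, 135.8, 19.4 and 17.8 against 4.33, 33.0, 8.91 and 5.68 CPM (1.76, SE 0.62, adjusted p = 0.285), and replicate 2 was highest in both groups. The cytokine genes Tnf and Il6, likewise named, were at 0.93 and 0.82 (adjusted p = 0.733 and 0.763). Interferon-stimulated genes numbered 0 called of 30 (median -0.07).

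Immediate early genes, which cells induce within minutes of many stimuli including tissue handling, had a median of 0.80, or 0.65 without non-irradiated replicate 4, and 3 called members of 37 measured. Ier5 stood at 104, 125.6, 102 and 92.1 against 48.6, 47.3, 40.8 and 39.8 CPM (log2 fold change 1.26, SE 0.20, adjusted p = 0.000436). Btg2, described above, and the AP-1 gene Junb were the others, and Junb stood at 299, 319, 330.5 and 185 against 155, 194, 113.8 and 46.3 CPM (1.16, adjusted p = 0.0467). Irradiated replicate 4 lay below non-irradiated replicate 2 for Junb, which was lost in 5 of the 8 fits (adjusted p = 0.0923 to 0.205 without irradiated replicate 1, 2 or 3 or non-irradiated replicate 3 or 4). Ier5 was the 1 gene of the list still called without non-irradiated replicate 4. Of the 37, 32 lay above 0, against 47.7% of all genes, and 0.659% of all genes rose with a call. Fos, also named after its values were seen, stood at 326, 435, 587 and 255 against 253, 355, 197 and 54.5 CPM (0.90, adjusted p = 0.384), with its lowest value in non-irradiated replicate 4, and the part of handling in these values was not tested. Of 29 cAMP-CREB response genes 0 were called (median 0.16), and of 15 heat shock genes 0 (median 0.13).

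Raised genes outside the lists included some of those with the smallest p. Ddias, named for its role in protecting cells from damage-induced apoptosis, stood at 134.9, 115.9, 136.9 and 154 against 38.4, 35.3, 35.5 and 24.6 CPM (log2 fold change 2.01, SE 0.18, adjusted p = 1.37e-07). Zfp750, known as a regulator of epidermal differentiation, had 1566 counts in the irradiated and 18 in the non-irradiated libraries, or 6.30, 6.53, 4.81 and 9.01 against 0, 0.0582, 0.106 and 0.174 CPM (6.23, SE 0.63, adjusted p = 5e-07). Its non-irradiated values rest on at most 9 counts per library, so the size of its fold change is loosely set. The antiproliferative gene Tob1 was at 34.2 to 39.6 against 14.2 to 18.6 CPM (1.21), Pgpep1, a peptidase gene, at 37.2 to 45.5 against 18.6 to 22.7 CPM (1.03), and the transcript 9230114K14Rik at 18.8 to 27.96 against 4.25 to 5.65 CPM (2.17). Aqp8 and 1700007K13Rik, named after their values were seen, had almost no counts without irradiation. The former had 74 against 1 count and the latter 332 against 5 counts, and Aqp8 was lost in 5 of the 8 fits (adjusted p = 0.0555 to 0.0889 without irradiated replicate 4 or any 1 of the 4 non-irradiated replicates).

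The lowered genes were fewer and changed less. Hyls1, a centriole gene needed for cilia, stood at 5.41, 4.62, 5.81 and 4.85 CPM in irradiated and at 16.2, 14.3, 12.6 and 14.7 CPM in non-irradiated mice (log2 fold change -1.48, SE 0.21, adjusted p = 7.69e-05). Msantd4 was at 17.2 to 21.8 against 26.3 to 34.8 CPM (-0.54, adjusted p = 0.00206). Both separated the groups, and they were the 2 lowered genes called in each of the 8 fits. In the fit of the 8 vehicle libraries alone Hyls1 passed (adjusted p = 0.0079) and Msantd4 did not (0.287). Pif1, a DNA helicase gene, stood at 7.28, 5.84, 6.67 and 5.07 against 18.9, 19.6, 14.1 and 13.04 CPM (-1.40, SE 0.29) and was lost without non-irradiated replicate 1 (adjusted p = 0.0511). Jade1 was at 43.1 to 55.0 against 60.8 to 67.0 CPM (-0.41) and was lost without irradiated replicate 1 or 2 (adjusted p = 0.0717 and 0.0581). Snn, which encodes stannin, was at 19.6 to 25.9 against 36.2 to 69.8 CPM (-1.24) and was lost in 6 fits (adjusted p = 0.0517 to 0.0732).

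Of 34 measured mitotic genes 1 fell, 0 rose and 33 did not pass. It was Aurka, which encodes the mitotic kinase Aurora A and stood at 49.7, 42.7, 59.3 and 35.9 against 106, 102, 88.1 and 71.2 CPM (log2 fold change -0.98, SE 0.24, adjusted p = 0.0429). Among lowered genes outside that list, Prr11 stood at 25.5, 17.4, 29.6 and 29.5 against 54.7, 51.3, 49.8 and 49.3 CPM (-1.01, SE 0.24, adjusted p = 0.0349), and Gas2l3, a cytoskeletal linker gene of dividing cells, at 5.18 to 9.46 against 14.5 to 20.8 CPM (-1.31, adjusted p = 0.0348). The groups did not overlap in any of the 3. Aurka and Prr11 were lost in all 8 fits (adjusted p = 0.0602 to 0.172 and 0.052 to 0.139) and Gas2l3 in 7 (0.0535 to 0.161, kept without irradiated replicate 4). Of the 34 mitotic genes 8 lay above 0, and the list median was -0.16. Over all genes 47.7% lay above 0 and 0.112% fell with a call. Other members, named after their values were seen, were the kinase gene Plk1 at -0.80 (adjusted p = 0.107) and the proliferation marker gene Mki67 at 0.20 (adjusted p = 0.914). Of 29 S-phase genes 27 lay above 0 with 0 called and a median of 0.18, and the median was 0.07 without non-irradiated replicate 4. The other 9 lowered genes were Tmem132e, Snx30, Ankrd6, Spg20, Zfp61, Trpa1, Ugt1a6a, Zfp90 and Mrgpre, lost in 2 to 7 of the fits, and Ugt1a6a shares exons with neighbouring genes of its cluster, so its counts are uncertain.

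**Figure D3:**
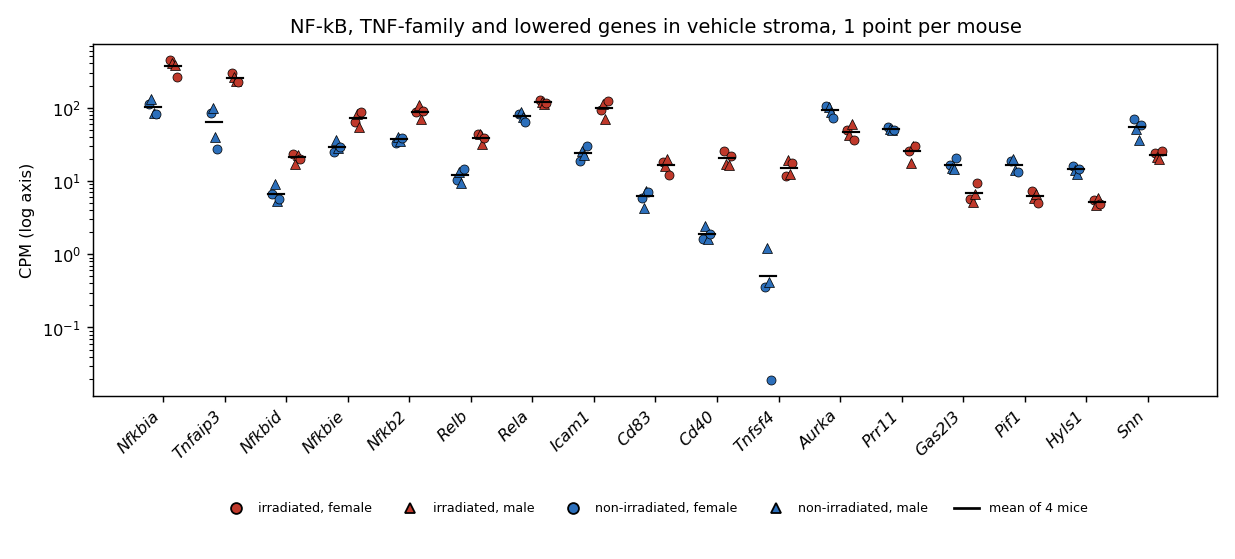
CPM on a log axis in each vehicle mouse for 11 raised genes (left) and 6 lowered genes (right). The raised genes are of NF-kB, of the TNF family, and of adhesion and costimulation (Icam1 and Cd83). Irradiated mice are in red and non-irradiated mice in blue, with a bar at the mean of 4 mice. Tnfsf4 shows the widest gap, and its lowest point, 0.0193 CPM, is non-irradiated replicate 4.

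Niche factors of the stroma were read as levels, since stromal cells are their main source. Cxcl12, the chemokine that retains stem cells in marrow, stood at 5377, 14038, 7042 and 4311 CPM in irradiated and at 8362, 9278, 13189 and 15717 CPM in non-irradiated mice (log2 fold change -0.66, SE 0.38, adjusted p = 0.644). Kitl, which encodes stem cell factor, stood at 150.2, 444, 215 and 187 against 378, 293, 498 and 708 CPM (-0.87, SE 0.37, adjusted p = 0.439). The groups overlapped in both through irradiated replicate 2, and non-irradiated replicate 4 was the highest of all 8. Lepr, the leptin receptor gene of CAR cells, was at -0.58 (adjusted p = 0.685), Il7 at -0.77 (0.587), Csf1 at -0.40 (0.824), and Angpt1 and Vcam1 both at -0.27 (0.817 and 0.862). Of 26 niche factors 0 were called, 4 lay above 0 and the median was -0.44, or -0.26 without non-irradiated replicate 4.

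Cell composition was followed through marker lists. All 10 markers of CAR cells lay below 0 (median -0.71, or -0.40 without non-irradiated replicate 4) and all 10 of the osteoblast lineage did too (-0.58, or -0.26 with 4 above 0), and 0 of the 20 were called. Their summed levels were 6521 to 19864 against 12332 to 21855 CPM for CAR cells and 3888 to 9945 against 5178 to 27962 CPM for the osteoblast lineage, where the 27962 CPM were non-irradiated replicate 4 and the next was 8977 CPM. In such bulk libraries fewer cells of a type and less RNA per cell cannot be told apart. Bglap and Bglap2, near-identical osteocalcin genes, are uncertain as single genes. Endothelial markers summed to 479 to 730.3 against 419 to 681 CPM. Of 14 sums, 13 of cell types and 1 of ribosomal protein genes, 0 differed by an exact two-sided permutation test over 70 relabellings of the mice. The smallest p was 0.114 (0.667 after adjustment over the 14), and the smallest that the design allows is 0.0286.

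The fraction was not free of blood cells, and this held in both groups. Ptprc, the CD45 gene, was at 93.4 to 227 against 114.7 to 155 CPM (log2 fold change 0.28, adjusted p = 0.873). Granulocyte markers summed to 2275 to 11997 against 3797 to 8522 CPM, with all 8 between 0.25 and 0.52 in log2 fold change and 0 called. Erythroid markers, 5 of 8 measured, summed to 638 to 3841 against 1365 to 2144 CPM. T and NK cell markers were lowest, at 14.3 to 22.1 against 8.96 to 17.9 CPM, and no listed marker that was measured was at 0 in all 8 libraries.

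**Figure D4:**
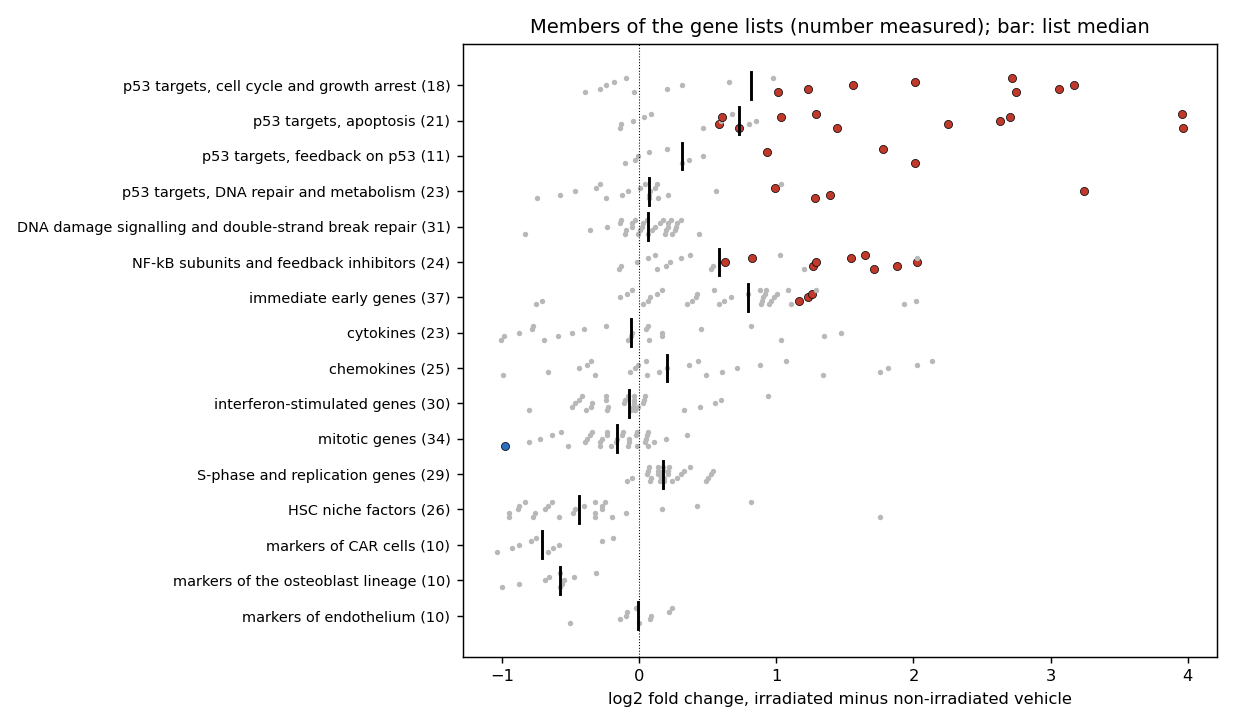
Log2 fold changes, irradiated minus non-irradiated, of the measured members of 16 gene lists, with the number measured in brackets, called genes in red (higher) or blue (lower), other genes in grey and a bar at each list's median. Called genes gather in the p53 and NF-kB lists, while the lists of CAR cell and osteoblast markers lie wholly below 0 without a call. The lists were chosen with earlier results of these data known.

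The response was compared between sexes with 2 mice per sex and group. All 100 raised and 17 lowered genes changed in the same direction in females and in males. They were called from these same mice, so the shared direction was largely fixed by the call and tests nothing. Cdkn1a was at 3.18 in females and 3.16 in males, and Mdm2 at 1.85 and 1.71. Of the 2 non-irradiated mice labelled female 1 is replicate 4, whose Xist level went against that label, so the values for females rest in part on a library of doubtful sex. By a test of the difference itself 0 genes passed (edgeR quasi-likelihood, 267 at an unadjusted p under 0.05), and DESeq2 also gave 0 (409 unadjusted). With 2 mice per cell these tests leave wide errors, so the response is not shown to be alike in both sexes.

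The same genes were followed in 8 other mice, given PGE in place of vehicle, which share no library with the vehicle comparison. There irradiation raised 7 genes (0.0461% of those tested), and all 7 were among the 100, namely Slc19a2, Ddias, Zfp750, Eda2r, Fam212b, Bbc3 and Nfkbid. Nfkbid was lost without irradiated PGE replicate 2 or 4 or non-irradiated PGE replicate 1 or 3 (adjusted p = 0.0793 to 0.133). Of the raised genes 93, and of the lowered genes 16, had the same sign as in vehicle mice, where 50% of all genes lay above 0 in PGE mice. All but 2 of these genes changed by less in PGE mice. The raised genes had a median of 1.29 in vehicle and 0.45 in PGE mice, and the lowered genes -1.01 and -0.16. The genes were chosen for passing in vehicle mice, so these counts and medians describe them and test nothing, and the difference was tested gene by gene over all genes.

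By that test 4 of 15168 genes differed (0.0264%), all with the larger rise in vehicle mice. Cdkn1a rose by 3.17 in vehicle mice and was at 0.42 in PGE mice (difference 2.75, SE 0.43, adjusted p = 0.00565), and in PGE mice it stood at 118.2 to 225 CPM without and 123.5 to 309 CPM with irradiation, where non-irradiated vehicle mice held 24.9 to 41.9 CPM. Ddit4 rose by 2.25 in vehicle mice and was at -0.18 in PGE mice (difference 2.43, SE 0.37, adjusted p = 0.00565), with 214 to 403 CPM without and 156 to 338 CPM with irradiation after PGE. Both genes were thus high in PGE mice whether irradiated or not. Tnfrsf10b was at 2.63 to 6.35 CPM without and 4.13 to 13.2 CPM with irradiation after PGE (difference 3.10, SE 0.51, adjusted p = 0.00944). Sesn2 was at 17.8 to 26.6 CPM without and 33.1 to 46.7 CPM with irradiation after PGE (difference 1.91, SE 0.34, adjusted p = 0.0207). Sesn2 alone was fragile, and its adjusted p lay between 0.0515 and 0.092 in 11 of the 16 fits that left out 1 vehicle or PGE library, among them the fit without non-irradiated vehicle replicate 4 (0.092).

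For the other genes the test found no difference at this number of mice, which does not show that the responses were alike. Zfp750 rose by 6.23 and 6.005, Eda2r by 3.97 and 2.995, Fam212b by 4.33 and 3.39, and Nfkbid by 1.65 and 1.66. Mdm2 changed by 1.78 in vehicle mice and 0.59 in PGE mice (difference 1.19, SE 0.23, adjusted p = 0.0632). Levels in all 20 irradiated libraries of mice given an agonist (PGE, sulprostone, rivenprost, both together or misoprostol) lay at 69.3 to 216 CPM for Mdm2 and 23.02 to 81.6 CPM for Slc19a2. Each of these 20 was above the 4 non-irradiated PGE libraries, which held 51.3 to 62.8 and 7.61 to 12.8 CPM. The same held for 20 of the 100 raised genes, these 2 included, while 16 of the 20 libraries lay above for Cdkn1a, 3 for Btg2 and 0 for Ddit4. The share of all genes for which this held was not counted. Except in the irradiated PGE libraries, agonist and irradiation differ together from the non-irradiated PGE libraries, and their parts cannot be told apart.

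**Figure D5:**
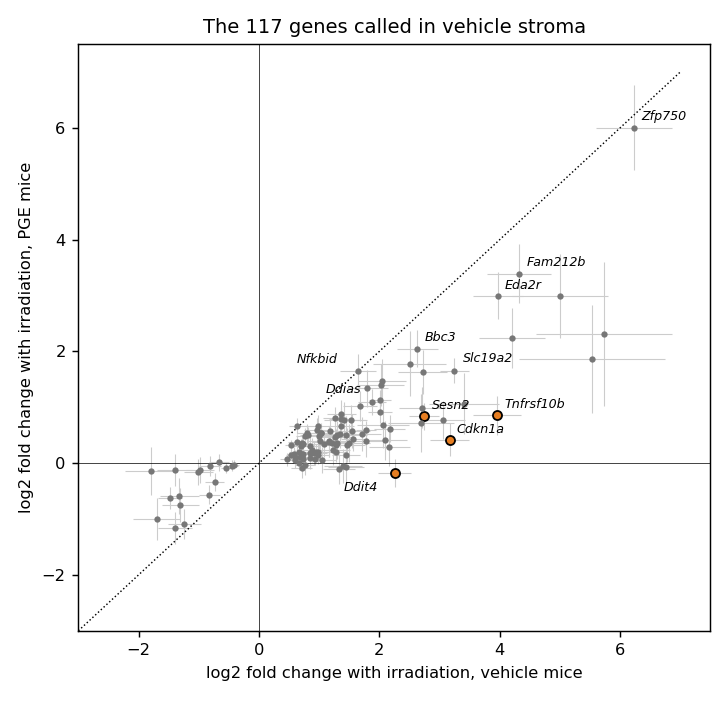
Each point is 1 of the 100 raised and 17 lowered genes of vehicle stroma, with its log2 fold change with irradiation in vehicle mice and in PGE mice, bars of 1 SE and a dotted line of equality. Nearly all points lie between the line and 0, and the 4 orange points, Sesn2, Tnfrsf10b, Cdkn1a and Ddit4, are those whose difference passed.

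In the authors' deposited table for this comparison, 157 genes had an FDR under 0.05 (1.04%), of which 31 were lower with irradiation. The genes shared with the raised and lowered genes given here all had the same sign. They were 97.4% of the genes called here and 72.6% of those in the authors' deposited table.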

How the data were processed

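Libraries were made per mouse from 100 ng of RNA with the KAPA mRNA HyperPrep kit, with paired reads of 100 bases, per the labels' protocols. Raw counts per gene were deposited by the authors. The submitters' processing notes list the build mm10 and these tools: edgeR 3.36.0, Subread 1.5.1 with featureCounts, STAR 2.5 and FastQC 0.11.5. The strand setting of the counting was not stated in the sources used here. Overlapping, antisense and closely copied genes are therefore uncertain. The authors' deposited table also holds gene lengths, another per-gene value, which served for CPM per kb, together with log2 fold changes and p-values with FDR of the authors' own comparisons. Its 32 columns of log2 CPM were not used.

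All 15168 genes deposited were tested, and each has at least 148 counts over the 32 stroma libraries. Counts were scaled by TMM and fitted in edgeR 4.0.16 (R 4.3.3, limma 3.58.1) by the quasi-likelihood test with robust priors, over the 32 stroma libraries with terms for group and sex and 23 residual degrees of freedom. Every adjusted p in the text is from that test with Benjamini-Hochberg adjustment over all genes, with a threshold of 0.05, unless another tool is named. The spread is shared with libraries of the other stroma groups. Sums of markers were compared by exact permutation. On simulated counts for 15168 genes with 200 changed, the fit recovered 64% of changes of 1, 91.5% of changes of 2 and 98% of changes of 3 (log2). The changed genes were drawn from those with a mean of at least 1 CPM, which leaves out 2223 genes. No library that stands apart was simulated, so these shares do not cover low genes or such a library.

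Genes named are the 20 called with the smallest p in each direction, called members of the lists, a set of fixed genes, and genes called in the tests of differences. Others are said to be chosen after their values were seen. The members and the 39 lists (678 of 716 symbols measured) were chosen with earlier results of these data known. Alternatives were other scalings, filters and covariates, DESeq2 1.42.0, and each library left out. The labels do not say more than that each library is from a separate mouse. Totals of 47.3 to 65.5 M counts limit genes of a few counts.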

Additional observations from a re-analysis of the deposited data

Results flagged for a closer look

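In 274 groups of 4 mice, 11 values (4.01%) stood apart from the other 3 by more than Dixon's 95% limit, where chance gives about 1 in 20. Of these, 4 were in non-irradiated vehicle replicate 4: the highest Swap70 (78.5 CPM), Trp63 (2.26 CPM) and Col1a1 (24363.5 CPM), and the largest share of counts in the top 50 genes (18.5%). Non-irradiated replicate 2 was highest for Eda2r (1.53 CPM) and Fam212b (3.90 CPM). Non-irradiated replicate 3 was highest for Aqp8 (0.0176 CPM, from 1 count) and Zfp874a (22.9 CPM) and lowest for Zfp61 (7.72 CPM). Irradiated replicate 3 was lowest for Aen (59.9 CPM), and irradiated replicate 4 highest for Zfp456 (16.01 CPM).

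The irradiation effect was larger in vehicle than in PGE mice, by a test of the difference (edgeR quasi-likelihood), for Tnfrsf10b by 3.10, Cdkn1a by 2.75, Ddit4 by 2.43 and Sesn2 by 1.91 on the log2 scale.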

How the results depend on the processing

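No paired analysis was possible because the labels give no replicate numbers shared between the groups. The count of raised and lowered genes together stayed within 1.5 times under other scalings, filters, no sex term and a prior that was not robust. It became 58 in a fit of the 8 vehicle libraries alone, 213 with a term for the animal number run, 66 in the first run alone, 26 in females alone, 14 in males alone and 248 with DESeq2. Leaving out 1 library gave 69 (without non-irradiated replicate 4) to 97. Without that library and non-irradiated PGE replicate 4, an alternative chosen after seeing the data, 80 passed. DESeq2 called 19 genes in PGE mice and 11 for the difference, and single leave-outs gave 6 to 10 and 3 to 6. None of the raised or lowered genes changed sign in any of these settings. They were called from the same libraries, so this was largely fixed by the call. The cause of these changes in count was not tested.

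Genes that did not pass changed sign as follows (log2). In the first run alone Atr was at -0.077, Chek1 -0.12, Trp63 2.09, Cxcl12 0.10, Angpt1 0.39, Vcam1 0.13, Il7 0.19, Csf1 0.38 and Ptger4 0.30. With the run term Trp63 was at 0.49 and Ptger4 0.14, in females alone Atm 0.16, and in males alone Trp63 0.49, Vcam1 0.20, Il7 6.9e-05, Csf1 0.17 and Ptger4 0.25. Single leave-outs gave Atm from -0.21 to 0.023 (above 0 without either replicate 2), Ptger4 from -0.24 to 0.21 (above 0 without irradiated replicate 3 or non-irradiated replicate 4) and Trp63 from -1.11 to 0.66 (above 0 without non-irradiated replicate 4). Without both replicates 4 of the third run Trp63 was at 0.69, Angpt1 0.00081 and Ptger4 0.23. Without non-irradiated replicate 4 the medians of the cytokine (0.13), TNF receptor (0.09), damage signalling (-0.03) and heat shock (-0.04) lists also changed sign.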

Other observations

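Other lists held 0 to 2 called genes each, where 0.659% of all genes rose. Of 24 hypoxia response genes 1 rose (Ddit4), of 17 glucocorticoid response genes 2 rose (Ddit4 and Nfkbia), and of 19 genes of G1 cyclins and CDK inhibitors 1 rose (Cdkn1a), with medians of 0.08, 0.17 and 0.04. Ddit4 and Cdkn1a are also counted among the raised p53 targets, and Nfkbia among the raised NF-kB genes. Of 19 antioxidant NRF2 genes 0 passed (median -0.03), and of 17 prostaglandin receptor and metabolism genes 0 passed (median 0.01).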
